A study of Mus musculus with 4 samples.

Results

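The variable (V) genes of the T cell receptor were examined in T cells of mouse pancreatic tumours. The members were all gene symbols beginning with Trav, Trbv, Trdv or Trgv, 170 of the 32285 genes in the files: 128 Trav, 35 Trbv, 6 Trdv and 1 Trgv gene. T cells were barcodes with at least 500 unique molecular identifiers (UMIs, counts of single captured RNA molecules), at least 250 genes, at most 20% mitochondrial UMIs and at least 1 UMI of Cd3d, Cd3e or Cd3g, the CD3 chains that accompany every T cell receptor on the cell surface. The rule gave 142 T cells of 536 cells in the whole-tumour library of line KPC-4545 and 237 of 1217 in that of line KPC-3403. In these cells 97 of the 170 V genes had a UMI, 60 of them in both lines, and 19 were seen in 1 cell only.

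Each developing T cell cuts and joins its receptor genes: 1 of many V segments is placed next to the joining segments, and the joined exon is spliced to a constant gene. The V segment codes for most of the variable domain, so the V gene in a cell's RNA is a partial label of its receptor and is passed on to daughter cells. Alpha-beta T cells, the CD4 helper and CD8 cytotoxic classes, use a Trav and a Trbv segment. Gamma-delta T cells use a gamma segment and either a Trdv segment or a Trav segment with dv in its name. The latter can serve an alpha or a delta chain and is counted here as Trav. Gamma genes can also be rearranged in cells that go on to the alpha-beta lineage. CD8 T cells recognise peptides on MHC class I and CD4 T cells on class II, and both enter pancreatic tumours.

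The samples were 4 droplet libraries, 1 whole and 1 enriched for each line. KPC is a mouse pancreatic ductal adenocarcinoma model, and its cells were implanted into the pancreas of untreated C57BL/6J mice. Tumours were taken on day 13, and the whole libraries were unsorted suspensions. The enriched libraries held cells sorted for the absence of CD45, CD31, EPCAM and TER119, a gate that removes T cells through the leukocyte antigen CD45. Replicate 1 is KPC-4545 and replicate 2 KPC-3403, so each line is 1 library per preparation, and the labels do not say how many animals stand behind a library. The age of the mice is not given in the sources used here.

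The whole libraries held 5746733 (KPC-4545) and 13990046 UMIs (KPC-3403), and their T cells a median of 4005 and 4248 UMIs. All 11 T cell marker genes fixed for the check were found in the T cells of both lines. Markers of other cells were also present: the summed erythroid list stood at 2.82 UMIs per 10000 in KPC-4545 and 167 in KPC-3403, the myeloid list at 18.8 and 38.5, and the fibroblast list at 0.0957 and 11.7. Leaving out barcodes with more than 1 UMI of the B cell markers Cd79a, Cd79b and Ms4a1 left 141 and 233 T cells. The barcodes of enriched KPC-4545 and whole KPC-3403 overlapped in 139 cells, against 6 to 11 for the other pairs of libraries. Of the 237 T cells of whole KPC-3403, 8 were such shared barcodes, and none of the 142 of KPC-4545 was. These 8 barcodes held 17.9% of the T cell UMIs of that library, and 3 of them, which were Cd4-positive, held 31.0% of the UMIs of its Cd4-positive cells. UMI ratios that involve KPC-3403 include them unless stated otherwise, and those of the genes that the results turn on are also given without them.

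The sequences of the V genes on which the CD8 and CD4 comparison turns are shown first. Each is the last 60 bases of the coding V segment, 5′ to 3′ on the gene's strand, from GENCODE M21 transcripts (GRCm38, the mm10 build). The capitals mark the last in-frame cysteine codon that follows a tyrosine codon, the conserved end of the framework before the hypervariable loop formed by the join. The annotated genes, each of 2 exons, lie at chr6:40891229-40891885 (Trbv1), chr6:41048290-41048828 (Trbv3), chr6:41059394-41059886 (Trbv4), chr6:41118851-41119364 (Trbv12-2), chr6:41163062-41163556 (Trbv17) and chr6:41557691-41558452 (Trbv31, minus strand).
Trbv1: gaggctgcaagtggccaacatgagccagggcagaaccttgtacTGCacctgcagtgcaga
Trbv3: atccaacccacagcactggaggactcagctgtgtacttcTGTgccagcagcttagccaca
Trbv4: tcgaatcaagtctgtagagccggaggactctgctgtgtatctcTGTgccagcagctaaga
Trbv12-2: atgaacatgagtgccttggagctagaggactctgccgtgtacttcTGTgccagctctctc
Trbv17: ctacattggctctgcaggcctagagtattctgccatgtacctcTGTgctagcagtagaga
Trbv31: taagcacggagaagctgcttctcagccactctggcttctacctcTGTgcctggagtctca
The 6 ends differ before the cysteine codon and in the bases after it, which reach into that loop. The Trav genes lie at chr14:52427928-53977678, the Trbv genes at chr6:40891229-41558452, the Trdv genes at chr14:53881612-54149294, among and after the last Trav genes, and Trgv2 at chr13:19336573-19337167.

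How far a V gene can be counted depends on whether its RNA differs from that of its relatives. All 170 genes were cut into windows of 90 bases, and 40 of them, 39 Trav and 1 Trbv, had no window that was absent from all other annotated transcripts. Of these 40 genes 2 had a UMI, and the 2 UMIs were the whole of their signal. Of 24 genes with some but under 50% unique windows 16 were found, with 195 UMIs. Of 106 genes with at least 50% unique windows 79 were found, with 2140 UMIs. A V gene at 0 UMIs among the first 40 is therefore not shown to be unused. Trav11 and Trav11d, the alpha genes of invariant natural killer T cells, had 0.394% and 0% unique windows. Trav11 had 2 UMIs in 2 T cells of KPC-3403 and Trav11d none. Trav1, the alpha gene of mucosal-associated invariant T cells, had 100% unique windows and was found in 1 T cell of each line. The mouse Trav locus holds repeated blocks, whose genes carry d or n in their names. Symbols without these letters made 72.0% of the Trav findings in KPC-4545 and 76.8% in KPC-3403, n symbols 16.0% and 14.0%, and d symbols 12% and 9.15%. Pseudogenes made little of the signal: 5 of 34 annotated as such had 15 UMIs in all, 7 of them in Trbv24.

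**Figure D1:**
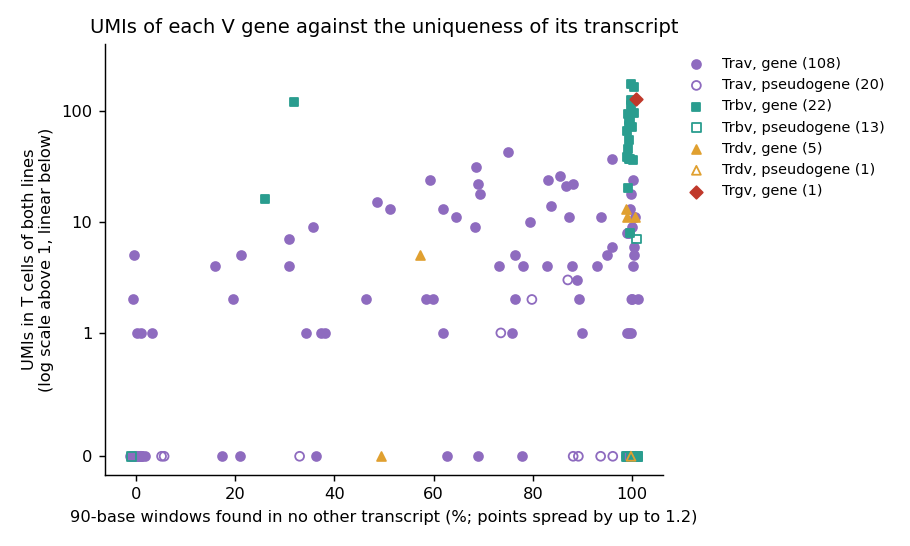
UMIs of each of the 170 V genes in T cells of both lines (y axis, log scale above 1) against the percentage of its 90-base windows found in no other transcript (x axis), with symbols by locus and open symbols for pseudogenes. The genes at the left edge, without a unique window, hold 2 UMIs together, while most Trbv genes and Trgv2 sit at the right edge with up to 176 UMIs.

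Beta chain genes were the best measured. A Trbv UMI was found in 119 of 142 T cells of KPC-4545 (83.8%, exact 95% interval 76.7 to 89.4%) and in 182 of 237 of KPC-3403 (76.8%, 70.9 to 82.0%). Positive cells had a median of 4 Trbv UMIs in each line. Outside the T cells the genes were nearly silent: 1 of 182 and 0 of 140 barcodes with B cell markers and no Cd3 UMI had a Trbv UMI, at median depths of 3182 and 3198 UMIs, and 0 of 190 and 5 of 806 of the other barcodes without Cd3. Of the 22 Trbv genes annotated as functional 21 were found. The exception, Trbv21, named here after its value was seen, had 0 UMIs in both lines although all its windows are unique. Intervals here and below cover counting error only.

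Counting cells with any UMI, the leading gene in KPC-4545 was Trbv12-2, in 24 cells, followed by Trbv13-2 in 21. In KPC-3403 Trbv13-2 led with 35 cells, followed by Trbv4 with 22, Trbv13-1 with 20 and Trbv12-2 with 18. The next genes over both lines were Trbv20 (12 and 12 cells in KPC-4545 and KPC-3403), Trbv13-3 (12 and 9), Trbv16 (9 and 11), Trbv3 (5 and 15), Trbv2 (8 and 10), Trbv1 (7 and 10), Trbv31 (7 and 10) and Trbv12-1 (5 and 12). With each cell given to its top gene, Trbv13-2 led in both lines. In KPC-4545 it then had 13 cells and Trbv12-2 had 12. In KPC-3403 it had 20, Trbv4 had 19, Trbv13-1 had 18 and Trbv12-2 had 11. By either count the leading gene of each line came from the Trbv12 and Trbv13 groups, which alternate along the middle of the locus. The effective number of Trbv genes (inverse Simpson index, the number of equally used genes with the same diversity) was 12.9 in KPC-4545 and 13.8 in KPC-3403. At 153 findings in each line, 21 and 20.2 genes were found, a difference of under 1 gene between the lines.

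**Figure D2:**
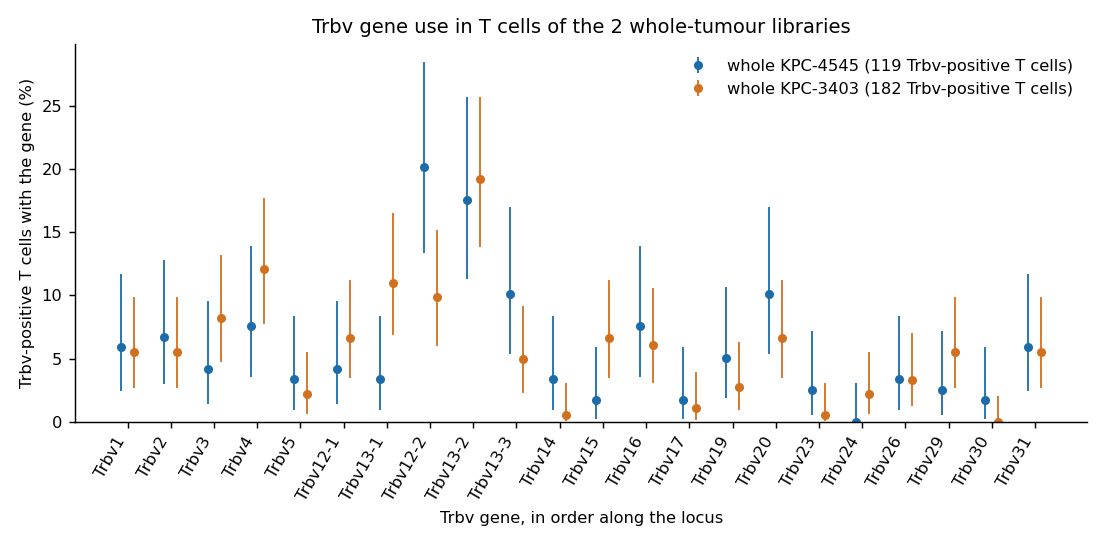
Share of Trbv-positive T cells (y axis, percent, with exact 95% intervals) in which each of the 22 Trbv genes was found (x axis, in order along the locus), by line. Trbv12-2 and Trbv13-2 are highest in KPC-4545 and Trbv13-2 in KPC-3403, and most intervals of the lines overlap.

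More than 1 Trbv gene was found in 26 of 119 positive cells of KPC-4545 (21.8%) and in 41 of 182 of KPC-3403 (22.5%). The leading gene of such a cell had a median of 75.0% of its Trbv UMIs in both lines. Counting a gene only from 2 UMIs brought the mean of the lines from 22.2% to 9.05%. By number of cells Trbv13-2 was most often in company, in 34 of its 56 cells (60.7%), and it had a single UMI in 27 of the 56. Trbv12-2, found in 42 cells, had a single UMI in 22. Both were in the same cell 11 times, the most of any pair, and their genes are neighbours with 2031 bases between them. Of 95 such joint findings 14 (14.7%) were of neighbouring genes. No doublet was removed, and the part of doublets in these joint findings was not tested.

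Alpha chain genes were found less often and were spread over many more genes. A Trav UMI was present in 77 T cells of KPC-4545 (54.2%) and 128 of KPC-3403 (54.0%), with a median of 2 UMIs per positive cell in each. Of the 128 Trav genes 47 and 58 were found, 70 in either line, and the effective numbers were 32.7 and 34.1. The most frequent over both lines was Trav12-2, in 4 cells of KPC-4545 and 12 of KPC-3403. It was followed by Trav9-1 (2 and 10 cells), Trav6-7-dv9 (3 and 9), Trav9-2 (5 and 6), Trav3-3 (3 and 6), Trav12-3 (7 and 2), Trav6n-6 (3 and 5) and Trav4-4-dv10 (2 and 6). Trav7-5, Trav16n, Trav13-1 and Trav14n-3 were in 7 cells each. No Trav gene was in more than 16 cells, and none passed the filter on low counts of the test below.

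Over both lines together the only member of the gamma locus, Trgv2, was found in more T cells than any other V gene but Trbv13-2. It was in 22 of 142 (15.5%) in KPC-4545, with 52 UMIs, and 29 of 237 (12.2%) in KPC-3403, with 76 UMIs. The other mouse gamma V genes are named Tcrg-V in these files and lie outside the rule; together they were found in 8 and 17 T cells. No Trgv2 UMI was found in 182 and 140 barcodes with B cell markers, which limits the shares of such barcodes with a UMI to 1.65% and 2.14% (3 counts), nor in 22 and 34 barcodes with natural killer (NK) cell markers and no Cd3 UMI. Trgv2 is close in sequence to its neighbour Tcrg-V1, with 94.9% of aligned coding bases identical, so the first 120 coding bases of both are shown. All 90-base windows of Trgv2 are unique in the annotation. Capitals in the second line mark the 5 bases in which Tcrg-V1 differs from Trgv2.
Trgv2: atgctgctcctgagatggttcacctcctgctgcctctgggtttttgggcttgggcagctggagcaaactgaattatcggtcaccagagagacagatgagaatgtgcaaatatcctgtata
Tcrg-V1: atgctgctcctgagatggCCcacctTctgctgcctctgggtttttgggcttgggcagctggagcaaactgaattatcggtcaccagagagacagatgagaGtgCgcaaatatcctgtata

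T cells were divided by their coreceptor RNA. KPC-4545 had 40 cells with Cd8a and no Cd4 UMI, 39 with Cd4 and no Cd8a UMI, 1 with both and 62 with neither; KPC-3403 had 59, 60, 0 and 118. The median depths were 5381 UMIs in Cd8a-positive and 3710 in Cd4-positive cells of KPC-4545, and 5299 and 4265 in KPC-3403. A Trbv UMI was found in 97.5% and 91.5% of the Cd8a-positive cells, in 89.7% and 86.7% of the Cd4-positive cells, and in 71.0% and 64.4% of those with neither (KPC-4545 first). A Trav UMI was found in 55.0% and 62.7%, in 74.4% and 65.0%, and in 40.3% and 44.1%. Trbv use was less even in Cd8a-positive cells, with effective numbers of 8.19 and 9.76 genes against 12.3 and 12.4 in Cd4-positive cells. At 47 findings in each group, 14.7 and 14.5 genes were found in Cd8a-positive and 18 and 16.4 in Cd4-positive cells.

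The UMIs of each gene were summed over the cells of each kind and library, which gave 4 sums, and Cd8a-positive were compared with Cd4-positive sums by edgeR's quasi-likelihood test with the line as a term and Benjamini-Hochberg adjustment over all genes. Of 3669 genes tested, 118 (3.22%) passed at an adjusted p of 0.05. Among the 170 V genes 15 passed the filter on low counts, 14 Trbv and Trgv2, and 6 of the 15 passed the test, 3 in each direction. Over all genes 1.14% were higher in Cd8a-positive and 2.07% higher in Cd4-positive cells. A V gene that only 1 kind of cell expresses enters the test through that kind, so the count describes the genes that entered and not the 170. Each V gene rests on few cells, and with 1 residual degree of freedom and 1 library per line the test sees no more than the spread among the 4 sums, which may be technical.

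Trgv2 was higher in Cd8a-positive T cells. In KPC-4545 it was found in 10 of 40 Cd8a-positive cells (25.0%, 12.7 to 41.2%) and 2 of 39 Cd4-positive cells (5.13%, 0.627 to 17.3%). In KPC-3403 it was found in 18 of 59 (30.5%, 19.2 to 43.9%) and 1 of 60 (1.67%, 0.0422 to 8.94%). The direction was thus the same in both lines. Per UMI sequenced, Trgv2 was 3.10-fold higher in Cd8a-positive cells of KPC-4545 (95% counting interval 1.26 to 9.15; 28 against 6 UMIs) and 18.9-fold higher in those of KPC-3403 (6.13 to 94.5; 54 against 3 UMIs; 14.3-fold, 4.65 to 71.7, without the shared barcodes). The fitted log2 difference was 3.08 (SE 0.52, adjusted p = 0.00111, edgeR quasi-likelihood test). It passed under every alternative in which Trgv2 was tested except DESeq2 (log2 3.08, adjusted p = 0.551). Thinned to 1000 UMIs per cell in a single random draw, the shares were 12.8% of 39 and 10.3% of 58 Cd8a-positive cells. They were 2.63% of 38 and 1.72% of 58 Cd4-positive cells. These thinned shares rest on few cells with Trgv2 and were given no interval. None of the shared barcodes had a Trgv2 UMI.

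All 10 and 18 Cd8a-positive cells with Trgv2 also had a Trbv UMI, 6 and 12 had a Trav UMI, and none had a Trdv UMI. In KPC-4545, Tcrg-C2, a gamma constant gene, was found in 60% of the Cd8a-positive cells with Trgv2 and in 3.33% of those without. In KPC-3403 the shares were 44.4% and 14.6%. Tcrg-C2 itself had a log2 difference of 3.0 between Cd8a-positive and Cd4-positive sums (SE 0.70, adjusted p = 0.0173, edgeR). In KPC-4545 it had 14 UMIs in 7 Cd8a-positive and 3 in 2 Cd4-positive cells, and in KPC-3403 21 in 14 and 1 in 1. It entered the test through the Cd8a-positive sums alone, so this p adds little to these counts. It did not pass without the shared barcodes (2.77, adjusted p = 0.0584, edgeR), without the line term (adjusted p = 0.0895, edgeR) or with DESeq2. Nor did it pass without the Cd8a-positive or the Cd4-positive sum of KPC-3403. Pdcd1, the inhibitory receptor PD-1, was found in 80.0% and 83.3% of Cd8a-positive cells with Trgv2 and in 56.7% and 46.3% of those without, with similar median depths (5399 against 5381 UMIs in KPC-4545 and 5214 against 5299 in KPC-3403). Ccr7, a receptor of recirculating T cells, was found in 10.0% and 11.1% with Trgv2 and in 36.7% and 29.3% without. Gzmb, the cytotoxic protease granzyme B, differed in direction between the lines, at 20.0% with and 30.0% without Trgv2 in KPC-4545 and 50% and 26.8% in KPC-3403. These shares are of cells within 1 library each and were not tested. Among T cells with neither coreceptor, 9 of 62 and 10 of 118 had Trgv2, and 3 and 4 of these also had a Trdv UMI.

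Trbv31, which lies apart from the other Trbv genes at the end of the locus and on the opposite strand, was found in Cd4-positive and not in Cd8a-positive cells. In KPC-4545 it was in 4 of 39 Cd4-positive cells (10.3%, 18 UMIs) and 0 of 40 Cd8a-positive cells, so that the share of cells with a UMI was limited to 7.5% (3 counts). In KPC-3403 it was in 6 of 60 (10.0%, 18 UMIs) and 0 of 59 (limit 5.08%). With a floor of 3 UMIs per library, it was at least 9.04-fold and at least 5.71-fold higher in Cd4-positive cells. Without the shared barcodes the second bound was 7.53-fold. The adjusted p was 0.000866 (edgeR) and 1.000 with DESeq2. Trbv31 entered the test through the Cd4-positive sums alone, so this p adds little to the counts of cells. Cells with neither coreceptor had Trbv31 in 3 of 62 and 4 of 118.

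Trbv4 was found in 4 of 40 Cd8a-positive and 2 of 39 Cd4-positive cells of KPC-4545 (21 and 8 UMIs), and in 15 of 59 and 2 of 60 of KPC-3403 (67 and 5 UMIs). The UMI ratios were 1.74 (0.741 to 4.55) and 14.1 (5.74 to 44.7), so the ratio was larger in KPC-3403, where it was 10.7 (4.35 to 33.9) without the shared barcodes. The log2 difference was 2.61 (SE 0.56, adjusted p = 0.0221, edgeR). Without the Cd8a-positive sum of KPC-3403 it was 1.91 and no longer passed. Trbv4 also did not pass with DESeq2, without the line term (adjusted p = 0.0826, edgeR) or with Cd8b1 added to Cd8a (adjusted p = 0.0894, edgeR). Only 31.6% of its windows are unique in the annotation.

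Trbv17 had the fewest cells of the 6 genes. It was found in 2 Cd8a-positive cells of KPC-4545, with 33 UMIs, and in 1 of KPC-3403, with 53 UMIs. No Cd4-positive cell had it, so with a floor of 3 UMIs per library it was at least 7.30-fold and at least 18.6-fold higher in Cd8a-positive cells. It entered the test through the Cd8a-positive sums alone (adjusted p = 4.7e-06, edgeR). The cell of KPC-3403 is 1 of the barcodes shared with enriched KPC-4545, and without the shared barcodes Trbv17 no longer passed the filter on low counts.

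Trbv1 and Trbv3 were higher in Cd4-positive cells. Trbv1 had 15 UMIs in 4 Cd4-positive cells and 2 in 1 Cd8a-positive cell of KPC-4545, and 25 in 5 against 5 in 3 in KPC-3403. These are UMI ratios of 11.3 (2.63 to 102) and 4.76 (1.79 to 15.9) and a log2 difference, Cd8a over Cd4, of -2.50 (SE 0.56, adjusted p = 0.0125, edgeR). Trbv3 had 18 UMIs in 2 Cd4-positive against 4 in 2 Cd8a-positive cells of KPC-4545, 15 of the 18 in 1 cell, and 29 in 7 against 7 in 1 in KPC-3403. Its log2 difference was -2.10 (SE 0.51, adjusted p = 0.0239, edgeR). Trbv1 and Trbv3 both entered the test through the Cd4-positive sums alone, so these adjusted p values add little to the counts of cells. Neither passed without the line term (adjusted p = 0.0560 and 0.0675, edgeR) or with DESeq2. Neither passed without T cells carrying other cell types' markers, a setting that keeps fewer cells. Trbv1 was lost without either Cd8a-positive sum or the Cd4-positive sum of KPC-3403 (adjusted p of 0.0845, 0.0501 and 0.0520), and with Cd8b1 added to Cd8a (adjusted p = 0.412, log2 -0.98). Trbv3 was lost without either Cd8a-positive sum (adjusted p of 0.103 and 0.0800).

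The other 9 V genes tested did not pass. Trbv12-2 was in 14 of 40 Cd8a-positive against 5 of 39 Cd4-positive cells of KPC-4545, with 98 and 6 UMIs (10.8-fold, 4.81 to 30.3), and in 6 of 59 against 4 of 60 cells of KPC-3403, with 18 and 15 UMIs (1.26-fold, 0.600 to 2.69; 0.956-fold without the shared barcodes). Its log2 difference of 2.08 had an SE of 0.80 (adjusted p = 0.465, edgeR), and it passed when the Cd8a-positive sum of KPC-3403 was left out (adjusted p = 9.7e-12, with the 1 Cd8a-positive sum left assumed to vary like the others), when Cd8b1 was added to Cd8a (adjusted p = 3.9e-05) and with no filter (adjusted p = 5.6e-05). Its relative Trbv12-1, 88.2% identical in coding sequence, had 10 against 1 UMIs in KPC-4545 and 13 against 2 in KPC-3403, where both Cd4-positive UMIs were in a shared barcode (log2 2.83, SE 1.00, adjusted p = 0.182, edgeR). Trbv16 had a log2 difference of 1.68 (SE 0.50, adjusted p = 0.0793). Trbv13-2, the most frequent beta gene, was in 6 of 40 and 9 of 59 Cd8a-positive and in 7 of 39 and 10 of 60 Cd4-positive cells, with a log2 difference of 0.21 (SE 0.33, adjusted p = 0.920). Trbv13-1, Trbv13-3, Trbv20, Trbv23 and Trbv26 had log2 differences between -1.28 (Trbv26) and 1.25 (Trbv13-1). Among the alpha genes, which were not tested, Trav9-1 and Trav9-2 were in 5 and 3 Cd4-positive cells of KPC-3403 and in 1 and 4 of KPC-4545, and in no Cd8a-positive cell of either. Trav12-2 was in 2 and 6 Cd8a-positive and 0 and 2 Cd4-positive cells, KPC-4545 first.

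**Figure D3:**
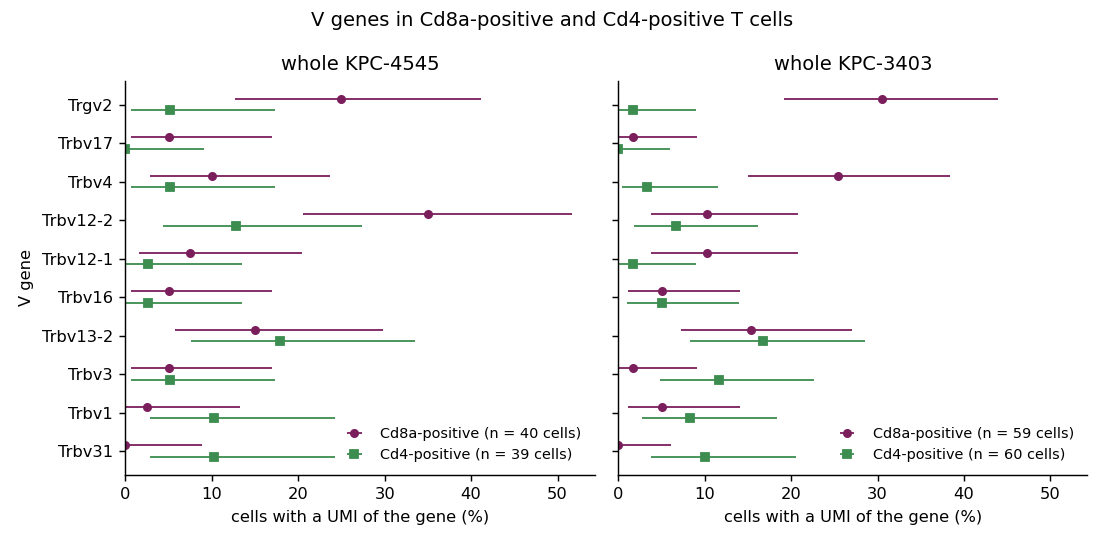
Share of Cd8a-positive (circles) and Cd4-positive T cells (squares) with a UMI of each of 10 V genes (x axis, percent, with exact 95% intervals), 1 panel per line. The intervals of Trgv2 do not overlap in KPC-3403 (30.5% against 1.67%) and do overlap in KPC-4545 (25.0% against 5.13%), and Trbv31 is at 0 in the Cd8a-positive cells of both lines.

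The lists of receptor and T cell genes fixed for the same test place these values. Of 4 constant genes tested, Tcrg-C2 passed, while Trbc1 (log2 1.06, SE 0.31, adjusted p = 0.0716, edgeR), Trbc2 (0.97, SE 0.27, adjusted p = 0.0524) and Trac (0.41, SE 0.27, adjusted p = 0.681) did not. None of 13 genes of the CD3 complex and its proximal signalling passed; Cd3e had a log2 difference of 0.78 (SE 0.30, adjusted p = 0.275) and Lck, the kinase bound to both coreceptors, of 0.15 (SE 0.27, adjusted p = 0.926). Of 15 CD8 coreceptor and cytotoxic genes 8 were higher in Cd8a-positive cells, with a list median of 2.86, and they include Cd8a, which chose the cells. Among the 8 were Klrk1 (4.74), Klrd1 (3.51), Klrc1 (2.86) and Nkg7 (2.67), natural killer receptors and granule genes of cytotoxic cells. Of 12 CD4 helper and regulatory genes tested 6 were lower, among them Cd4 by the choice of cells, Foxp3 (-7.24), the factor of regulatory T cells, and Tnfrsf4 (-3.63). Of 9 activation and checkpoint genes tested Pdcd1 (1.06), Lag3 (1.54) and Nr4a2 (1.14) were higher and Nr4a1 (-1.26) lower. Of 3 innate-like T cell genes tested, Maf (-3.44) was lower. None of 8 naive and none of 8 cycling genes passed, and none of the 4 V(D)J recombination genes reached the filter. The median over all genes tested was 0.02.

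Markers of myeloid cells were higher in the Cd4-positive sums, mostly through few barcodes. Of 9 myeloid markers 8 were found in the Cd4-positive cells of each line and 2 and 3 in the Cd8a-positive cells. Their summed level was 72.5 and 55.6 UMIs per 10000 in Cd4-positive and 0.0864 and 0.145 in Cd8a-positive cells. S100a8, a neutrophil gene, had 470 of its UMIs in 1 Cd4-positive cell of KPC-4545 and 990 in 1 of KPC-3403. The NK list, which shares receptor genes with cytotoxic T cells, stood at 18.9 and 11.3 in Cd8a-positive and 0.586 and 0.665 in Cd4-positive cells. The erythroid list stood at 94.8 in Cd8a-positive and 36.9 in Cd4-positive cells of KPC-3403, and the other way in KPC-4545, at 1.69 and 4.23. Of the UMIs of Hbb-bs, a gene of that list, in KPC-3403 1 Cd8a-positive cell held 1594 of 1710 and 1 Cd4-positive cell 592 of 705. The part of these barcodes in the V gene differences was not tested. Leaving out T cells with at least 2 UMIs of B cell, myeloid, epithelial, fibroblast and erythroid markers together left 86 and 34 T cells. Of the 2 V genes then testable 0 passed (1 at an unadjusted p under 0.05, edgeR). T cells with 1 such UMI stayed in. Elsewhere the cells left out are called T cells carrying other cell types' markers.

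The Trdv genes were rare in T cells and were found in a larger share of barcodes with NK markers and no Cd3 UMI. A Trdv UMI was present in 9 of 142 T cells of KPC-4545 (6.34%) and 11 of 237 of KPC-3403 (4.64%). Of the 6 Trdv genes, Trdv1, Trdv2-2, Trdv4 and Trdv5 were found, and Trdv2-1 and the pseudogene Trdv3 were not. The Trdv UMIs were mostly in T cells with neither coreceptor, in 8 of 62 and 10 of 118, while none of 40 and 59 Cd8a-positive cells had one. Barcodes with at least 2 UMIs of the NK genes Ncr1, Klrb1c, Klre1 and Klra8 and no Cd3 UMI, a kind defined after the data had been seen, were 22 in KPC-4545 and 34 in KPC-3403. A Trdv UMI was present in 12 of the 22 (54.5%) and 15 of the 34 (44.1%), while 0 and 1 had a Trbv UMI, 0 and 0 a Trav UMI. Other barcodes without Cd3 rarely had a Trdv UMI: 0 of 182 and 1 of 140 with B cell markers, and 2 of 190 and 4 of 806 of the rest. The 3′ ends of the 2 genes concerned, at chr14:54074905-54075515 and chr14:53960944-53961602, are given with the same cysteine codon in capitals.
Trdv4: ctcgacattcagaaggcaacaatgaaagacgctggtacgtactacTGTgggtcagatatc
Trdv2-2: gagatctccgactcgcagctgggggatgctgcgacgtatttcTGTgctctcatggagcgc
Trdv4 was in 9 of 22 such barcodes (40.9%, 20.7 to 63.6%) against 2 of 142 T cells (1.41%, 0.171 to 5.00%) in KPC-4545. In KPC-3403 it was in 9 of 34 (26.5%, 12.9 to 44.4%) against 4 of 237 (1.69%, 0.462 to 4.26%). Trdv2-2 was in 3 of 22 (13.6%) and 10 of 34 (29.4%) against 2 of 142 (1.41%) and 3 of 237 T cells (1.27%). The intervals of Trdv4 did not overlap in either line. The constant gene Trdc was found in 18.2% and 14.7% of these barcodes and in 4.93% and 5.06% of T cells. Trbc1 was found in 63.6% and 52.9% of them. Trdv1 and Trdv5 behaved otherwise: Trdv1 was in 2 and 3 T cells, each of which had a Trbv UMI, Trdv5 in 4 and 1, and neither was in any NK marker barcode. The median depths of the NK marker barcodes, 3868 and 3676 UMIs, were below those of the T cells. T cells with at least 2 UMIs of the same NK genes numbered 21 of 142 in KPC-4545 and 32 of 237 in KPC-3403. They included 2 of the 2 and 2 of the 3 T cells with Trdv2-2, and 1 of 2 and 2 of 4 with Trdv4. With Trdv5 they included 0 of 4 and 1 of 1 T cells, and with Trdv1 none.

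**Figure D4:**
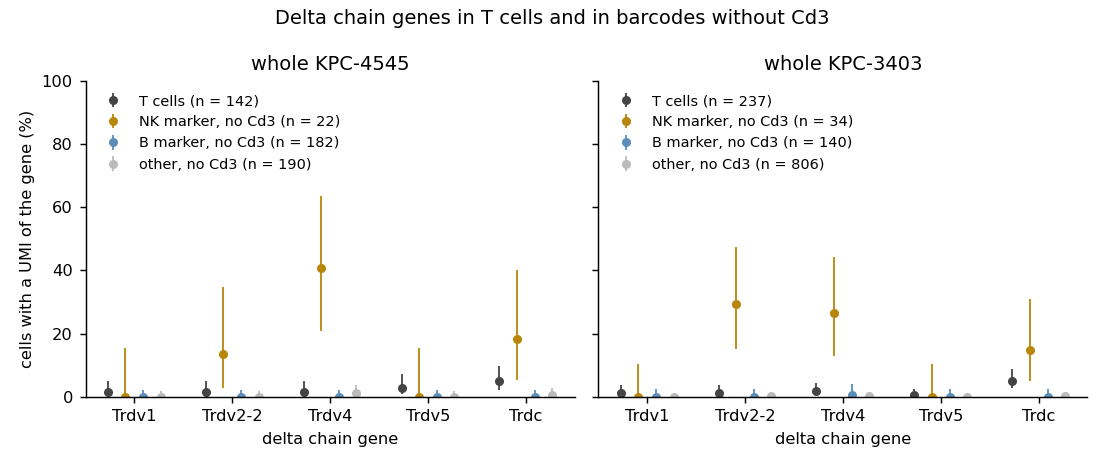
Share of cells with a UMI of 4 Trdv genes and of the constant gene Trdc (y axis, percent, with exact 95% intervals) in T cells and in 3 kinds of barcodes without Cd3 UMIs, 1 panel per line. Trdv4 and Trdv2-2 are highest in barcodes with NK markers (40.9% and 13.6% in KPC-4545, 26.5% and 29.4% in KPC-3403), and Trdv1 and Trdv5 are at 0 there.

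An alpha and a beta gene, each the cell's top gene with ties left out, could be read together in 63 T cells of KPC-4545 (44.4%) and 97 of KPC-3403 (40.9%). They formed 56 and 86 different pairs. Cells that shared their pair with another cell of the same line made 13 of 63 (20.6%, 11.5 to 32.7%) and 20 of 97 (20.6%, 13.1 to 30.0%). The largest groups held 3 cells. Trav8n-2 with Trbv23 was in 3 Cd8a-positive cells of KPC-4545, with 25 and 23 UMIs, which were all the Trbv23 cells of that library. Trav12-2 with Trbv20 was in 3 Cd8a-positive cells of KPC-3403. Trav15-1-dv6-1 with Trbv13-2 was in 3 cells of KPC-3403 with neither coreceptor, with 4 UMIs of each gene. Whether that Trav15-1-dv6-1 RNA was of an alpha or a delta chain was not tested. Trav19 with Trbv12-2 and Trav4-4-dv10 with Trbv4 were in 2 cells each of KPC-3403, the latter both Cd8a-positive and with 28 and 16 UMIs. Within Cd8a-positive cells 5 of 19 and 9 of 31 (26.3% and 29.0%) were in recurring pairs, within Cd4-positive cells 2 of 23 and 4 of 29 (8.70% and 13.8%), with overlapping intervals. Of all pairs 5 occurred in both lines, the most frequent being Trav9-2 with Trbv2 in 2 cells of KPC-4545 and 1 of KPC-3403. A shared pair of V genes does not show a shared clone, since the joined loops are not in the files. When symbols of a family were summed, recurring pairs were 45.0% as the mean of the lines, and without cells that carried markers of other cell types they were 2.86% among fewer cells.

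The lines were compared in UMIs per 10000 UMIs of the T cells, with no test, since each line is 1 library. Among 30 V genes with at least 20 UMIs over both lines, 18 were at least 2-fold apart, 10 higher in KPC-4545 and 8 higher in KPC-3403. Over all 7206 genes with as many UMIs 10.9% were at least 2-fold apart, 3.77% higher in KPC-4545 and 7.13% higher in KPC-3403. Without the shared barcodes 17 of 28 V genes were at least 2-fold apart. The median log2 ratio, KPC-4545 over KPC-3403, was 0.365 for the V genes and 0.0558 for all genes. The medians of the loci differed in sign, at 0.616 for the 19 Trbv genes and -0.939 for the 10 Trav genes. Of these 10 Trav genes 4 were at least 2-fold higher in KPC-4545 and 5 in KPC-3403, so their median gives no direction of the locus. All 128 Trav genes together had 244 UMIs of 627123 T cell UMIs in KPC-4545. In KPC-3403 they had 356 of 1231319. Several UMIs of a V gene often come from 1 cell, so the counting intervals below are too narrow for a comparison of tumours.

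The largest ratios belonged to genes found in few cells. Trav4-3 had 22 UMIs in 4 cells of KPC-4545 and 2 in 1 cell of KPC-3403, and Trav12-3 had 22 in 7 and 2 in 2, both 21.6-fold (5.31 to 189). Trav8n-2 had 26 UMIs in 4 cells of KPC-4545, all Cd8a-positive, and none in KPC-3403, 17.0-fold against a floor of 3 UMIs (lower counting limit 12.9). Its last coding bases are shown because it carries the most repeated pair of that line; the gene lies at chr14:53345890-53346424 and Trbv23, its partner, at chr6:41216073-41216526.
Trav8n-2: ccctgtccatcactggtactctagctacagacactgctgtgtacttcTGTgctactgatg
Trbv23: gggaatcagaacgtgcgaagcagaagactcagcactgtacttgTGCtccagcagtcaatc
Capitals again mark the cysteine codon. Trbv14 (15 UMIs in 4 cells against 5 in 1) and Trbv19 (27 in 6 against 10 in 5) were 5.89-fold and 5.30-fold higher in KPC-4545. In the other direction Trbv15 had 70 UMIs in 12 cells of KPC-3403 and 2 in 2 cells of KPC-4545 (17.8-fold, 4.75 to 150). Trav4-4-dv10 was 3.87-fold, Trbv29 3.72-fold, Trav14n-3 3.57-fold and Trav9-1 3.23-fold higher in KPC-3403. Of the 21 UMIs of Trav14n-3 in KPC-3403 12 were in a shared barcode, and without the shared barcodes the gene was 1.86-fold higher. Trav12-3 then had 1 UMI left there. Trbv12-2 was 3.61-fold higher in KPC-4545 (2.63 to 5.00), with 114 UMIs in 24 cells against 62 in 18, and 2.97-fold without the shared barcodes. Trgv2, found in 22 and 29 cells, stood 1.34-fold apart (0.925 to 1.94), and Trbv4, Trbv3, Trbv12-1 and Trbv20 between 0.776 and 1.11 as KPC-4545 over KPC-3403.

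**Figure D5:**
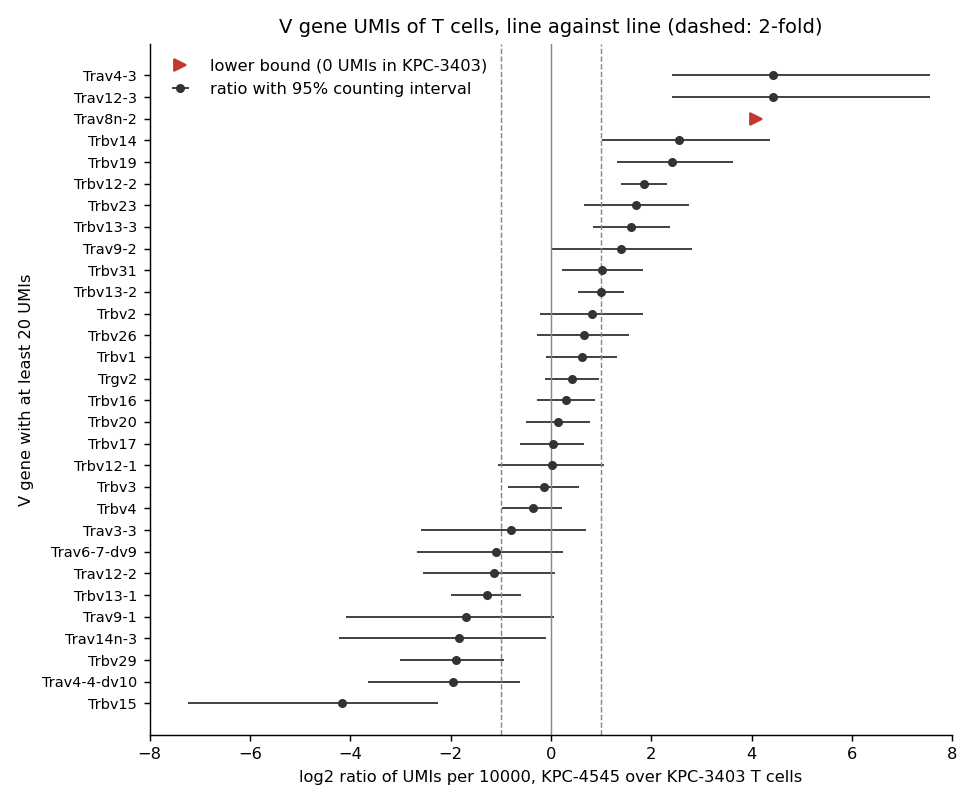
Ratio of V gene UMIs per 10000 UMIs of T cells, KPC-4545 over KPC-3403 (x axis, log2), for the 30 V genes with at least 20 UMIs, with 95% counting intervals. Dashed lines mark 2-fold, and the triangle, marked as a lower bound, is a ratio against a floor of 3 UMIs. Trav4-3 and Trav12-3 (21.6-fold) and Trbv15 (17.8-fold the other way) lie farthest from 0, and Trgv2 lies near it.

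In the enriched libraries V gene RNA was nearly absent. Over all barcodes there were 1148 (KPC-4545) and 1683 (KPC-3403) V gene UMIs in the whole libraries, 200 and 120 per 1000000 UMIs, and 81 and 34 in the enriched libraries, 1.72 and 0.661 per 1000000. The means were 160 ± 56.6 and 1.19 ± 0.749 per 1000000 (SD, n = 2 each; exact two-sided permutation p = 0.333, the smallest that 2 against 2 libraries allow). The 2 whole libraries were both above the 2 enriched ones. In the whole libraries 82.8% and 82.4% of the V gene UMIs were in the T cells. The enriched libraries had 3 and 0 barcodes that passed as T cells, and 2 of the 3 were barcodes of T cells in whole KPC-3403.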

How the data were processed

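The 4 libraries were made with 10x Chromium 5′ chemistry, which reads transcripts from their start, where the V segment lies. The values are UMI counts per gene and barcode as the authors deposited them, with no normalization, for all barcodes; gene symbols were taken from the files. Reads were counted with Cell Ranger 6.1.1 on mm10, per the submitters' processing notes, while the matrices name Cell Ranger 4, per the file headers. Receptor assembly or clonotypes were not used here.

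T cells were called by the rule given at the start of the results, and no doublets were removed. Samples were grouped by their labels. Shares have exact Clopper-Pearson 95% intervals, and UMI ratios exact binomial 95% intervals; a count of 0 is set to a floor of 3 UMIs or cells. UMI sums of Cd8a-positive and Cd4-positive cells were tested with edgeR 4.0.16 in R 4.3.3 (glmQLFit, TMM, filterByExpr, Benjamini-Hochberg at 0.05), with DESeq2 1.42.0 as an alternative. The line is the block, since both sums of a number come from 1 library; their deviations from the kind means correlated at 0.193 over 3669 genes. Tested on simulated data of 3695 genes, the fit recovered 84 of 100 genes changed 4-fold and 22 of 100 changed 2-fold for this comparison. The self-test made no false call. Its counts had the same spread for all genes and no line effect, and genes with low expected counts were not changed. Genes whose UMIs come from few cells, as V genes do, were not simulated, so these rates are not shown for them.

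Sequences, uniqueness and positions come from GENCODE M21 transcripts (GRCm38), in which all 170 members were matched by gene ID. Named are the 12 most frequent Trav and Trbv genes, all Trdv and Trgv genes found, V genes that passed, the 5 largest differences per direction between kinds (with at least 8 cells) and between lines (with at least 20 UMIs), the invariant receptor genes and the 5 most frequent pairs. The members and lists were chosen with earlier results of these data known. Alternatives changed the gate, the UMIs that call a gene, the depth, the scaling and filter, and left out sums or libraries.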

Additional observations from a re-analysis of the deposited data

Results flagged for a closer look

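Trbv23 went in opposite directions in the 2 lines. In KPC-4545 it had 23 UMIs in 3 Cd8a-positive cells and none in Cd4-positive cells, and in KPC-3403 14 UMIs in 1 Cd4-positive cell and none in Cd8a-positive cells, with counting intervals on opposite sides of equality. Each direction rests on 1 library, so the difference was not tested. The 3 cells of KPC-4545 also shared Trav8n-2.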

How the results depend on the processing

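Over 3669 genes 118 passed in the comparison of Cd8a-positive with Cd4-positive cells, and 6 of the V genes. Without a filter on low counts 241 and 13 passed (13183 and 82 tested), with DESeq2 19 and 1, and without T cells carrying other cell types' markers 23 and 0 (858 and 2 tested; fewer cells). With no replicate block, that is without the line that pairs the sums, 52 and 3 passed. Leaving out 1 sum at a time gave 89 to 276 genes and 5 to 9 V genes. Trbv13-2, which did not pass, had a log2 difference of 0.21, which changed sign to -0.02 without the shared barcodes, chosen after seeing the data, and ranged from -0.36 to 0.88 with 1 sum left out.

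The share of T cells with a Trbv UMI, 80.3% as the mean of the lines (76.8 to 83.8% with 1 line left out), was 85.3% from 2 Cd3 UMIs, 65.2% where a gene needed 2 UMIs, and 50.8% in cells thinned to 1000 UMIs. The Trav share, 54.1% (54.0 to 54.2%), was 57.5%, 30.2% and 28.0% in the same order. It was 56.0% from 1000 UMIs and 500 genes, 53.2% at a mitochondrial limit of 10%, 53.8% without T cells carrying other cell types' markers and 54.8% without B cell marker barcodes, an alternative chosen after seeing the data.

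Cells with more than 1 Trbv gene, 22.2% (21.8 to 22.5%), came to 22.8% from 1000 UMIs and 500 genes, 9.05% at 2 UMIs and 20.9% with families summed. The effective number of Trbv genes, 13.4 (12.9 to 13.8), was 14.8 at 2 UMIs, 15.1 with each cell given to its top gene, 8.5 with families summed and 11.0 without T cells carrying other markers. Recurring pairs, 20.6%, were 20.8% from 2 Cd3 UMIs, 20.0% from 1000 UMIs and 500 genes, 21% at the mitochondrial limit of 10% and also without shared barcodes, 18.4% at 2 UMIs, 45.0% with families and 2.86% without other markers. The Trgv2 difference of 24.4 percentage points (19.9 to 28.8) was 14.7 at 2 UMIs and 9.40 in thinned cells. The number of V genes at least 2-fold apart between lines, 18 of 30, was 9 of 13 without other markers. The whole minus enriched difference, 159 per 1000000 UMIs, kept its sign without each library. The cause of these shifts was not tested beyond the fewer cells or UMIs that some alternatives keep by construction. At the depth of these cells the alpha genes had a median of 2 UMIs in positive cells.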

Other observations

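In the enriched libraries the alpha constant gene Trac was found in more barcodes than the Trav or Trbv genes. Among barcodes with neither Cd3 nor B or NK markers, 82 of 1685 in KPC-4545 (4.87%) and 71 of 2556 in KPC-3403 (2.78%) had a Trac UMI, against 3 of 190 (1.58%) and 13 of 806 (1.61%) in the whole libraries. A Trav UMI was in 7 and 1 of the same enriched barcodes and a Trbv UMI in 0 and 1. Median depths were 8128 and 16064 UMIs in the enriched and 5774 and 4264 in the whole libraries.

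The 8 T cells of whole KPC-3403 whose barcodes are also cells of enriched KPC-4545 held 53 of the 63 Trbv17 UMIs of that library's T cells, 12 of 25 of Trav6-7-dv9 and 12 of 21 of Trav14n-3.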
